A study of Mus musculus with 5 samples.

Results

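The 10 genes described here serve the uptake of apoptotic cells: the receptor tyrosine kinases Mertk, Axl and Tyro3, the bridging ligands Gas6, Pros1 and Mfge8, the receptor Lrp1, the engulfment proteins Elmo1 and Dock1, and the signal Cd47. They were taken by gene symbol from a table of 21289 genes, and all 10 symbols were found in it. The table holds RNA sequencing read counts of CD45+CD64+ cells, a gate for cardiac monocytes and macrophages, sorted from the hearts of male wild-type C57BL/6JGpt mice 7 days after myocardial infarction. In 3 samples the mice had been given curcumol, a sesquiterpene, by oral gavage at 30 mg/kg daily for 7 days. The other 2 samples came from infarcted hearts of mice without curcumol, called untreated here. By its title the series concerns curcumol, the sensor STING and interferon signalling in macrophages. The labels name no vehicle for the untreated mice and no uninfarcted hearts, and they do not say whether a sample came from 1 animal or from several, so a p-value here speaks only of the spread among the 5 samples, which may be technical.

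Macrophages that clear dying cells recognise phosphatidylserine on the surface of the corpse. The TAM receptors (Tyro3, Axl and Mertk) do so through the soluble bridges Gas6 and protein S, and integrins through Mfge8. Engulfment then runs through Rac, which the Elmo1-Dock1 complex activates, while CD47 on a healthy cell holds the phagocyte back through its receptor SIRP alpha. After infarction Mertk on cardiac macrophages is known for clearing dead cardiomyocytes in mice.

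The libraries held 39768705 to 41117439 counts with curcumol and 41663017 to 43315822 counts without it. A count was found for 17188, 17078 and 18501 genes with curcumol, against 12243 and 12915 genes without it. Summed CPM (a gene's counts relative to its library's total) of 10 macrophage markers ranged from 34262 to 37102 with curcumol and from 36768 to 38156 without it and overlapped, but most of that sum was Lyz2. Single markers did not overlap: Cd68 stood at 1855 to 2171 CPM with curcumol and at 3344 and 2976 CPM without it, Cd14 at 1209 to 1880 against 3421 and 3470 CPM, and Itgam at 193 to 459 against 125 and 86.3 CPM. Several lists of other cell types were higher in every curcumol library. These were 10 neutrophil markers at 1683 to 3605 against 359 and 396 CPM, 10 endothelial markers at 30.9 to 46.9 against 4.25 and 4.78 CPM, 9 T and NK cell markers at 64.2 to 129 against 37.2 and 64.0 CPM, 6 B cell markers at 84.7 to 235 against 49.9 and 36.5 CPM and 10 cardiomyocyte markers at 102 to 124 against 26.2 and 55.9 CPM. The 10 fibroblast markers summed to 710 to 999 CPM with curcumol and 879 and 852 CPM without it, but most of that was Gsn. Without Gsn, left out after its values were seen, the other 9 summed to 137 to 372 CPM with curcumol and 33.7 and 27.2 CPM without it. In these lists the markers at 0 in both untreated libraries were the neutrophil genes Ly6g and Camp, the fibroblast genes Lum, Pdgfra and Col5a1, the endothelial genes Cdh5, Tie1, Tek, Cldn5, Egfl7 and Robo4, the cardiomyocyte genes Myh7, Ttn and Ryr2, Ncr1 and Pax5. The 14 genes of the dissociation response, such as immediate early genes, summed to a lower level with curcumol, at 8492 to 15285 CPM against 25418 and 26830 CPM. Dendritic cell, mural, recruited monocyte and erythroid or platelet lists overlapped between the groups in their sums. The untreated mural sums, 31.2 and 14.3 CPM, came from Acta2 (24.6 and 14.3 CPM) and Cspg4 (6.58 and 0 CPM) alone. The mural genes Pdgfrb, Rgs5, Tagln, Myh11, Notch3 and Kcnj8 were at 0 in both untreated libraries, as were Clec9a, Siglech and Alas2. With curcumol Rgs5 stood at 8.28, 15.3 and 11.2 CPM, while Tagln, Myh11 and Notch3 were at or near 0. Overlap of the mural sums is therefore no evidence of equal mural content. Bulk libraries cannot tell fewer cells of a type from less RNA per cell.

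**Figure D1:**
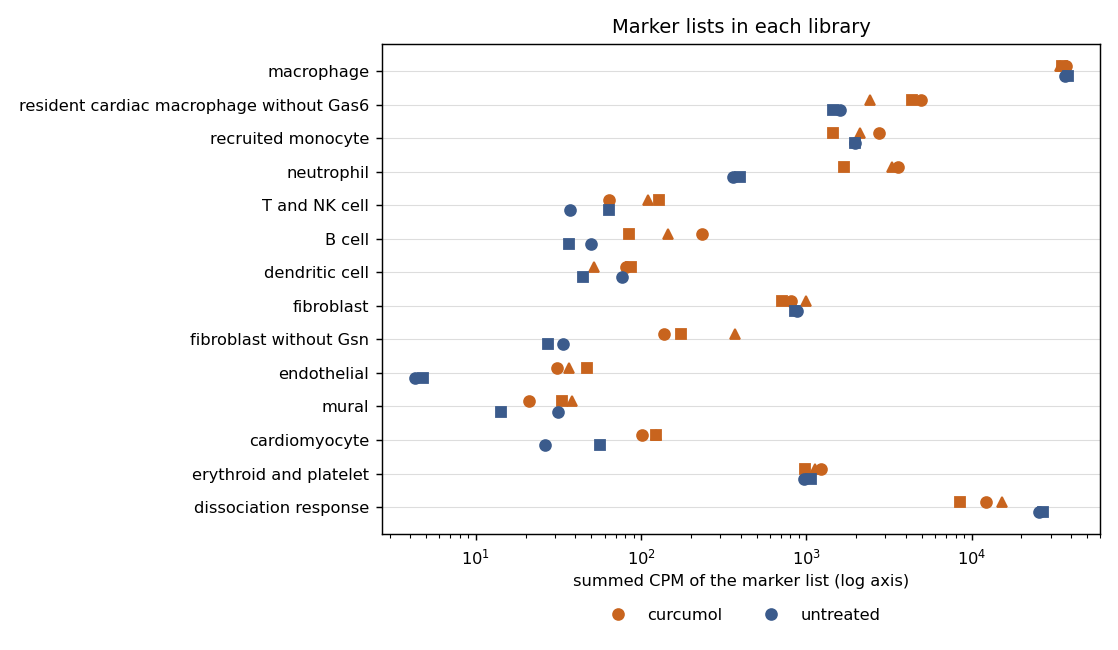
Summed CPM of each marker list (x, log axis) in each library, curcumol in orange above untreated in blue, with circles, squares and triangles for replicates 1, 2 and 3. Macrophage sums, mostly Lyz2, overlap, while neutrophil, endothelial and resident macrophage markers (without Gas6) are higher in every curcumol library and dissociation genes are lower.

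By edgeR's quasi-likelihood test 0 of the 10 genes differed between the groups at an adjusted p under 0.05, where 0.207% of 14508 tested genes did (0.0689% higher and 0.138% lower with curcumol). Genes called higher included the neutrophil markers Ngp and Camp, the fibroblast markers Dcn and Lum and the mural marker Rgs5. Camp, Lum and Rgs5 were at 0 in both untreated libraries, and Ngp stood at 0.0923 and 0.0480 CPM there. Tyro3 entered the test only through 2 curcumol libraries, so it is left out of the counts that follow. Of the 9 genes with a count in every library, the log2 fold change was above 0 in 7 and below 0 in 2, with a median of 0.70, where all tested genes had a median of 0.15 and those with an average log2 CPM of at least 5 a median of -0.10. At an unadjusted p under 0.05 Mertk, Gas6 and Lrp1 were higher with curcumol, where 18.1% of all tested genes were higher and 6.51% lower. Among the 12587 tested genes with 10 counts in an untreated library, as these 9 have, the shares were 7.69% and 7.5%. DESeq2 called the same 3 genes higher at an adjusted p of 0.05 (9.56% of its 20536 genes were called higher), and limma-voom called none of the 10. CPM values of the groups did not overlap for 5 of the 9 genes, Mertk, Gas6, Mfge8, Lrp1 and Dock1, all higher with curcumol, as were 36.6% of all tested genes (9.31% were lower, 45.9% either). Among genes with an average log2 CPM of at least 5 the shares were 26.3% higher, 15.2% lower and 41.5% either. The scale matters to this count. On CPM scaled by TMM factors, which edgeR uses to set libraries on a common footing, Mfge8 overlapped, Cd47 was lower in every curcumol library, and 29.5% of all tested genes were higher without overlap and 14.9% lower (15.5% and 27.3% of those with an average log2 CPM of at least 5).

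Mertk, a TAM receptor known for corpse uptake by macrophages (NCBI gene 17289), had the smallest adjusted p of the 10. It stood at 63.4, 149 and 82.8 CPM in the curcumol libraries, against 29.9 and 37.0 CPM in the untreated libraries. The lowest curcumol library lay above the higher untreated one, and curcumol replicate 2 lay far above the others. The log2 fold change was 1.36 ± 0.37 (SE; 95% interval 0.46 to 2.26), and the adjusted p in edgeR's quasi-likelihood test was 0.0820. The adjusted p was 0.00799 in DESeq2 and 0.0296 in edgeR without untreated replicate 2, where 18.1% of all genes were called higher and 4.44% lower. No other omission of 1 library called any of the 10 genes. All genes were called higher in 14.8% and lower in 3.96% without untreated replicate 1, in 0.00715% and 0% without curcumol replicate 1, in 0% and 0% without replicate 2, and in 0.029% and 0.109% without replicate 3. Without curcumol replicate 2 the log2 fold change was 0.95. Related to the summed macrophage markers, Mertk had 1.71, 4.24 and 2.42 CPM per 1000 CPM of markers with curcumol and 0.813 and 0.971 without it. That sum, mostly Lyz2, varied little between libraries, so the ratio largely restates CPM and does not measure macrophage content.

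Axl, the TAM receptor that binds Gas6 and is raised by inflammation in macrophages (NCBI gene 26362), stood at 131, 254 and 112 CPM with curcumol, against 144 and 98.2 CPM without it. The groups overlapped, and only curcumol replicate 2 lay above the untreated range. Its log2 fold change was 0.25 ± 0.38 (95% interval -0.66 to 1.17; edgeR adjusted p = 0.757), and it was -0.16 without curcumol replicate 2. Tyro3, the third TAM receptor (NCBI gene 22174), had 0, 11 and 20 counts with curcumol and 0 in both untreated libraries. The limit of 3 counts that a count of 0 allows corresponds to 0.0693 and 0.0720 CPM in the untreated libraries and covers counting error only. As 1 curcumol library was also at 0, Tyro3 was near the limit of detection in both groups, and no fold is given.

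Mertk and Axl made up nearly all TAM receptor transcript, and Axl was the more abundant per transcript length in every library. Axl to Mertk ratios of length-scaled levels were 2.09, 1.72 and 1.37 with curcumol, against 4.87 and 2.67 without it. The groups did not overlap in this ratio. Mertk's share of the summed length-scaled level of the 3 receptors was 37.1% ± 4.89 (SD, n = 3) with curcumol and 22.1% ± 7.19 (SD, n = 2) without it. No test was run on these ratios, since exact permutation of 3 and 2 libraries reaches no p under 0.1.

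Gas6 binds all 3 TAM receptors and makes with Mertk and Axl the receptor and ligand set on which these values turn, so the 250 bases before their RefSeq start sites are shown (GRCm38.p6, 5′ to 3′ on the gene's strand). Capitals mark the GC box GGGCGG on either strand, the motif of Sp1-type factors.
Mertk, chr2:128698665-128698914, plus strand: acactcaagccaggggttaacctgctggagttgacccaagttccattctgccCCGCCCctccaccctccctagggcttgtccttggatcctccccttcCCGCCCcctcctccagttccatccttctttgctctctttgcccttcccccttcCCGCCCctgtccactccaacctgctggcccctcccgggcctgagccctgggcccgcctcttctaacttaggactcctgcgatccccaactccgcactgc
Axl, chr7:25788734-25788983, minus strand: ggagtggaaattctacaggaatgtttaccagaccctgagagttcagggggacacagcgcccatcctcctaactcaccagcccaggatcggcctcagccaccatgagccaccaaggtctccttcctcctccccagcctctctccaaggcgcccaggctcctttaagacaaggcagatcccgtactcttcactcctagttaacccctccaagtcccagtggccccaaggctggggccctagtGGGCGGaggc
Gas6, chr8:13494536-13494785, minus strand: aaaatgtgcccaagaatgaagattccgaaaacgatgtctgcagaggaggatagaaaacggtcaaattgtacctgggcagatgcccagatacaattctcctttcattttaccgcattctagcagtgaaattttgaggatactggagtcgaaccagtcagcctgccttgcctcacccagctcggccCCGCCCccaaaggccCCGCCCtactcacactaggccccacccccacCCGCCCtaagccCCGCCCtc
Mertk holds 3 GC boxes here, Axl 1 and Gas6 4. Over the 12 start sites that RefSeq gives for the 10 genes, 11 hold at least 1 in these 250 bases, as do 32.7% of 32851 mouse promoters of that length. The GC content of these windows was 63.6% for Mertk, 60.0% for Axl and 54.8% for Gas6, against a median of 52.4% over all promoters. Over the 12 windows it ran from 43.6% (Elmo1, site 2, which holds no GC box) to 74.4% (Cd47, site 2). The GC box share was not adjusted for GC content. Of the other motifs searched on both strands, GAGGAAG, the core of PU.1 sites, was in 1 of the 12 (Axl) and in 10.6% of all promoters. CACGTG (6.02% of all promoters), TGANTCA (6.75%) and a direct repeat of AGGTCA with 4 bases between, as bound by LXR receptors (0.0152%), were in 0 of the 12. These are matches of letters, and binding was not measured.

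Gas6 (NCBI gene 14456) was the most abundant of the 10 genes per transcript length in every library. It stood at 675, 415 and 504 CPM with curcumol, against 268 and 256 CPM without it. All 3 curcumol libraries lay well above both untreated libraries, and replicate 1 was the highest, unlike Mertk and Axl, which peaked in replicate 2. The log2 fold change of Gas6 was 0.84 ± 0.25 (95% interval 0.23 to 1.44; edgeR adjusted p = 0.0978), and DESeq2 gave an adjusted p of 0.0208. Pros1, which encodes protein S, a bridge to Mertk and Tyro3 and also an anticoagulant (NCBI gene 19128), stood at 218, 174 and 99.9 CPM with curcumol and at 133 and 79.5 CPM without it. Its groups overlapped, since curcumol replicate 3 lay inside the untreated range. The log2 fold change of Pros1 was 0.44 ± 0.39 (95% interval -0.51 to 1.39; edgeR adjusted p = 0.568).

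Mfge8, which links phosphatidylserine to alpha v integrins (NCBI gene 17304), stood at 81.9, 153 and 150 CPM with curcumol and at 75.2 and 62.6 CPM without it. Replicates 2 and 3 of curcumol were high, while replicate 1 lay close above the untreated libraries. The log2 fold change was 0.70 ± 0.29 (95% interval -0.00187 to 1.40; edgeR adjusted p = 0.204). Among the 3 bridges Gas6 took 64.9% ± 7.61 of the summed length-scaled level with curcumol and 61.7% ± 5.04 without it (SD, n = 3 and 2). Pros1 took 15.4% ± 4.60 with curcumol and 18.9% ± 4.72 without it. Mfge8 took 19.7% ± 8.05 with curcumol and 19.3% ± 0.323 without it. In all 3 shares the groups overlapped.

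Lrp1, a large endocytic receptor that recognises calreticulin on dying cells (NCBI gene 16971), stood at 239, 407 and 482 CPM with curcumol, against 184 and 179 CPM without it. Every curcumol library lay above the untreated libraries, which differed little from each other, and replicate 3 was the highest. The log2 fold change was 0.85 ± 0.29 (95% interval 0.16 to 1.54; edgeR adjusted p = 0.127), and DESeq2 gave an adjusted p of 0.0474. Lrp1 has the longest transcript of the 10, 14888 bases, and long transcripts as a whole were higher with curcumol. With that trend on transcript length removed, the log2 fold change of Lrp1 was 0.38 and its adjusted p in edgeR 0.506. The same correction gave 1.05 for Mertk (4302 bases), 0.90 for Gas6 (2548 bases) and 0.39 for Dock1 (6807 bases).

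Elmo1, the adaptor in the Rac-activating complex (NCBI gene 140580), stood at 104, 131 and 101 CPM with curcumol and at 92.5 and 107 CPM without it. The groups overlapped. The log2 fold change was -0.02 ± 0.18, with a 95% interval of -0.45 to 0.41 and an adjusted p of 0.965 in edgeR, and its sign depended on the scaling and on single libraries. Dock1, the exchange factor that Elmo1 holds (NCBI gene 330662), stood lower, at 10.9, 23.4 and 13.03 CPM with curcumol and at 8.98 and 6.53 CPM without it. Curcumol replicate 2 was again the highest and the groups did not overlap, with a log2 fold change of 0.83 ± 0.47 (95% interval -0.30 to 1.95; edgeR adjusted p = 0.341). Elmo1 to Dock1 ratios of length-scaled levels were 11.9, 6.97 and 9.68 with curcumol and 12.8 and 20.4 without it, so Elmo1 exceeded Dock1 in all 5 libraries.

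Cd47, the signal that restrains phagocytes (NCBI gene 16423), was the steadiest of the 10 genes in CPM. It stood at 460, 454 and 390 CPM with curcumol and at 449 and 449 CPM without it. Its log2 fold change was -0.23 ± 0.16 (95% interval -0.61 to 0.15; edgeR adjusted p = 0.437), and with the trend on transcript length removed it was -0.63 (adjusted p = 0.0723). Sirpa, the receptor of Cd47 on macrophages, stood at 800, 877 and 974 CPM with curcumol and at 594 and 583 CPM without it, with a log2 fold change of 0.40 ± 0.15 (edgeR adjusted p = 0.169). Cd47 to Sirpa ratios of length-scaled levels were 0.436, 0.393 and 0.304 with curcumol and 0.573 and 0.584 without it, and the groups did not overlap.

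**Figure D2:**
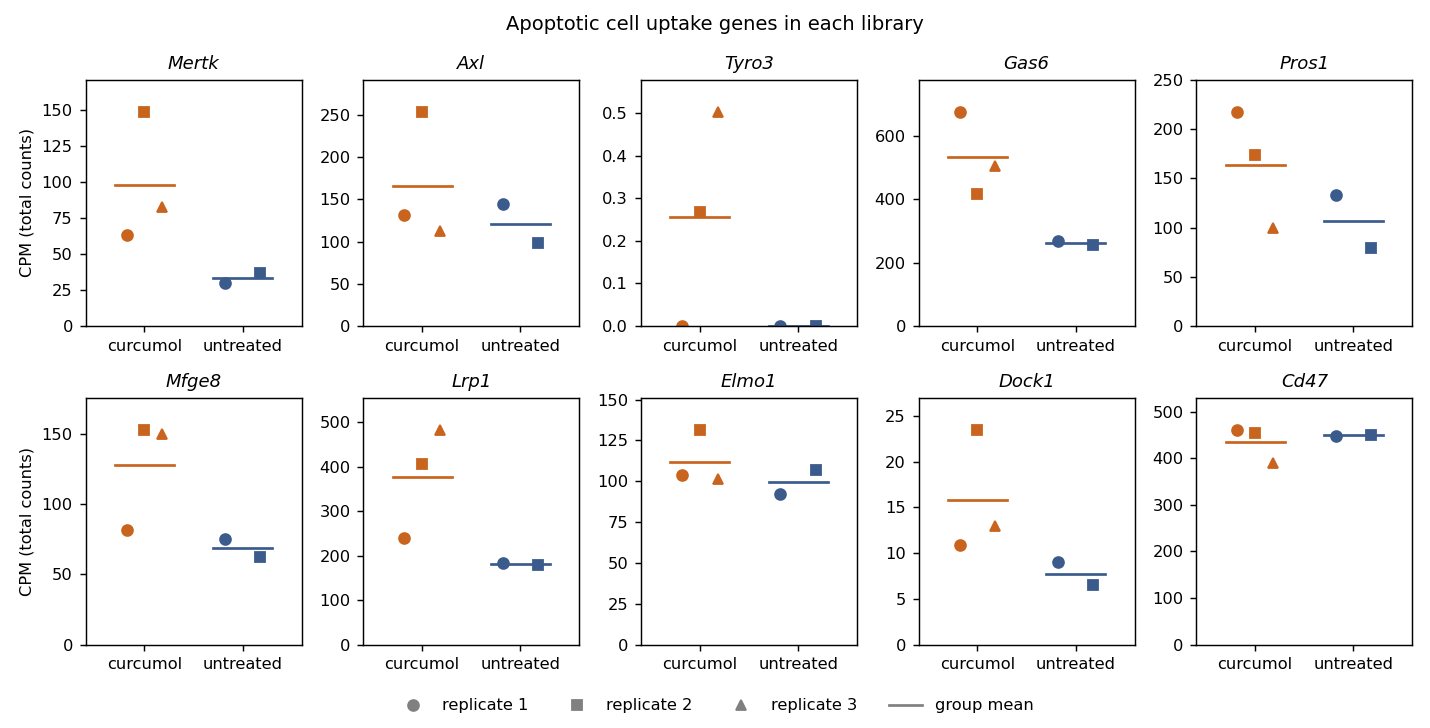
CPM of each of the 10 genes (y, from 0) in each library, curcumol left of untreated, with a symbol per replicate number and a line at the group mean. Mertk, Gas6, Mfge8, Lrp1 and Dock1 show no overlap between the groups, Axl, Pros1, Elmo1 and Cd47 do, and Tyro3 is at or near 0 throughout.

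The genes did not share 1 order of libraries. Among the 9 genes with a count in every library, 5 were highest in curcumol replicate 2, 3 in replicate 1 and 1 in replicate 3, and 8 were lowest in an untreated library. Cd47 was lowest in curcumol replicate 3. In log2 CPM centred on each gene's mean over the 5 libraries, Dock1 was the most like Mertk, with a root mean square difference of 0.35, followed by Lrp1 at 0.43 and Mfge8 at 0.44. Axl stood at 0.63 and Gas6 at 0.67. Among the 4253 genes ranked, with an average log2 CPM of at least 5, the 5 nearest to Mertk by this measure were Ezh1 (0.10), AW112010 (0.11), Norad (0.13), Ivns1abp (0.15) and Twf1 (0.15). Ezh1, a histone methyltransferase, stood at 32.9, 66.0 and 37.2 CPM with curcumol and at 13.5 and 19.0 CPM without it.

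**Figure D3:**
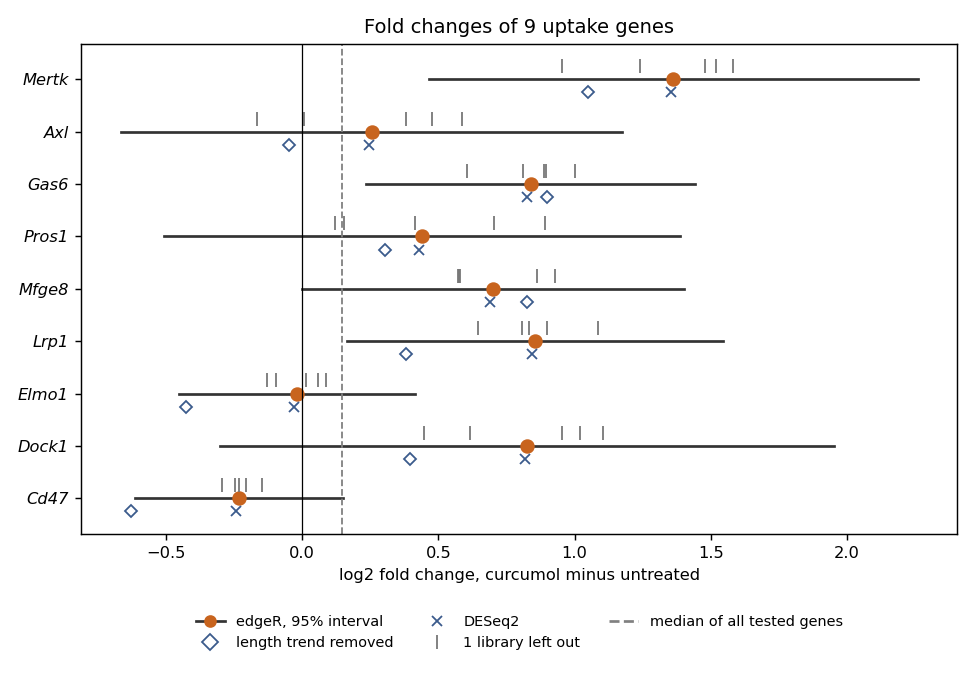
Log2 fold changes, curcumol minus untreated (x), of the 9 genes with a count in every library, with 95% intervals from edgeR, values with the length trend removed, from DESeq2 and with 1 library left out. The intervals of Mertk, Gas6 and Lrp1 lie above 0, and removing the length trend leaves Lrp1 at 0.38 and Cd47 at -0.63.

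Levels per transcript length set the genes in an order that was partly shared by the groups. With curcumol the mean length-scaled level (counts per kilobase, scaled as TPM) was 388 ± 92.0 for Gas6, 155 ± 17.5 for Cd47, 113 ± 36.2 for Mfge8, 93.0 ± 34.6 for Pros1, 73.3 ± 36.2 for Axl, 47.1 ± 15.3 for Lrp1, 43.03 ± 20.97 for Mertk, 38.4 ± 6.93 for Elmo1 and 4.36 ± 1.998 for Dock1 (SD, n = 3). In this order Gas6 and Cd47 did not overlap across libraries, nor did Elmo1 and Dock1, while the neighbours from Cd47 to Elmo1 overlapped. Within each library, though, Cd47 ranked 2 of 10 and so lay above Mfge8. Without curcumol the level was 187 ± 6.29 for Gas6, 156 ± 0.356 for Cd47, 59.0 ± 7.77 for Mfge8, 58.6 ± 21.0 for Pros1, 51.8 ± 14.03 for Axl, 33.2 ± 3.33 for Elmo1, 22.2 ± 0.492 for Lrp1, 14.2 ± 2.10 for Mertk and 2.07 ± 0.469 for Dock1 (SD, n = 2). There only Mfge8, Pros1 and Axl overlapped with a neighbour. Mertk ranked 8, 6 and 7 of 10 with curcumol and 8 in both libraries without it.

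**Figure D4:**
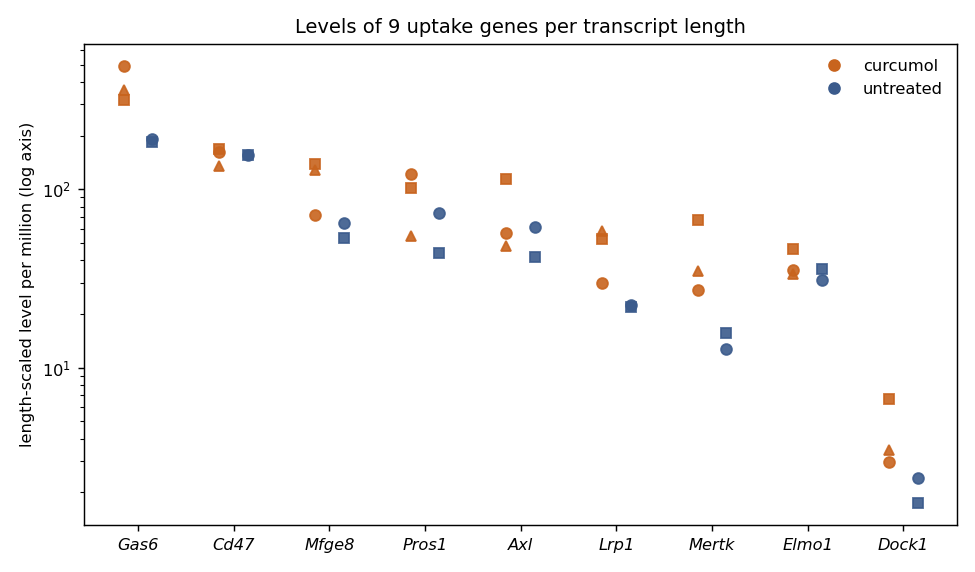
Length-scaled level, as TPM (y, log axis) of 9 genes in each library, ordered by the curcumol mean, curcumol left of untreated in each column. Gas6 is highest and Dock1 lowest in all 5 libraries, and Tyro3, with 0 in 3 libraries, is not drawn.

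Some of these genes are shared with other cells and with a macrophage subset. Gas6 belongs to the list of 10 resident cardiac macrophage markers, all of which had a positive log2 fold change, with none past the threshold in edgeR. Their other 9 genes summed to 4964, 4378 and 2438 CPM with curcumol and to 1585 and 1449 CPM without it. Mertk is also typical of resident macrophages in the mouse heart. Gas6, Pros1, Axl, Lrp1 and Mfge8 are also made by fibroblasts and endothelial cells. As given above, endothelial markers were higher with curcumol, while the summed fibroblast markers overlapped and were higher with Gsn left out. Of the 10 fibroblast markers 9 had a positive log2 fold change, Gsn being the exception. Dcn stood at 67.4, 56.3 and 89.4 CPM with curcumol and at 12.5 and 11.4 CPM without it (edgeR adjusted p = 0.0464). The part of these lists in the values of the 10 genes was not tested.

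The other 105 genes fixed for the pathway divide into 9 roles, and 101 of them entered the test. None passed an adjusted p of 0.05 in edgeR. Stab2, Pear1, Ptx3, Gulp1, Elmo3, Bcar1 and Timp3 had under 10 counts in both untreated libraries and entered the test only through the curcumol libraries, so they are left out of the counts and medians that follow. Of the other 94, 12 were higher and 13 lower at an unadjusted p under 0.05, where 7.69% and 7.5% of all genes with 10 counts in an untreated library were. DESeq2 called 8 of the 94 higher and 10 lower (9.56% and 3.36% of all its genes), and limma-voom 3 and 5 (9.72% and 1.73%). With a replicate block 0.103% of all genes were called higher and 0.207% lower. These shares also cover genes with under 10 counts in both untreated libraries, so they are not matched to the 94. The median log2 fold change of the 94 genes was -0.13, 32 being positive and 62 negative. All tested genes with 10 counts in an untreated library had a median of 0.0089, 6361 being positive and 6226 negative. Genes with an average log2 CPM of at least 5 had a median of -0.10, and 40.6% of them were positive. For genes at 0 in both untreated libraries, folds set the curcumol mean against a limit of 3 counts per library, so a single curcumol library can lie lower. The limit covers counting error only, and the untreated libraries held counts for fewer genes, as given above.

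Of 16 uptake receptors, 5 were positive and 11 negative, with a median log2 fold change of -0.15. Cd14, which tethers apoptotic cells as well as lipopolysaccharide, stood at 1766, 1209 and 1880 CPM with curcumol and at 3421 and 3470 CPM without it (log2 fold change -1.28 ± 0.23, edgeR adjusted p = 0.0644). Pear1, an engulfment receptor of glial cells, stood at 1.19, 1.26 and 1.94 CPM with curcumol and had no count without it, at least 20.3-fold higher. Of 10 other bridging molecules, 4 were positive and 6 negative (median -0.33). The complement component C3 stood at 43.6, 50.1 and 25.5 CPM with curcumol and at 8.40 and 4.92 CPM without it (2.38 ± 0.44, edgeR adjusted p = 0.0651). The pentraxin Ptx3 stood at 0.560, 0.803 and 0.503 CPM with curcumol and had no count without it, its curcumol mean being 8.64-fold that limit.

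Of 15 genes of the engulfment machinery, 4 were positive and 11 negative (median -0.09). Vav3, an exchange factor for Rac, stood at 32.8, 45.3 and 35.1 CPM with curcumol and at 15.9 and 17.3 CPM without it (log2 fold change 0.997 ± 0.247, edgeR adjusted p = 0.0755). Elmo3, a relative of Elmo1, stood at 1.92, 0.413 and 1.41 CPM with curcumol and had no count without it, at least 17.3-fold higher. Rac1 itself averaged 722 CPM with curcumol and 657 CPM without it (-0.05, edgeR adjusted p = 0.906). Of 7 receptors and adaptors that restrain uptake, 4 were positive (median 0.25). Pecam1, which stands in the endothelial list too, stood at 6.74, 16.3 and 8.499 CPM with curcumol and at 0.531 and 0.504 CPM without it (4.14 ± 0.73, edgeR adjusted p = 0.0644). Cd24a, a ligand of inhibitory Siglecs, stood at 50.3, 30.3 and 49.9 CPM with curcumol and at 63.5 and 80.4 CPM without it (-0.91 ± 0.28, edgeR adjusted p = 0.104).

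Genes for sensing dying cells at a distance were negative in 5 of 6 (median -0.40). P2ry2, a receptor for released nucleotides, stood at 12.5, 12.6 and 17.3 CPM with curcumol and at 33.4 and 22.7 CPM without it (log2 fold change -1.18 ± 0.31, edgeR adjusted p = 0.0796). Cx3cr1, the fractalkine receptor, averaged 229 ± 28.6 CPM with curcumol and 282 ± 43.1 CPM without it (edgeR adjusted p = 0.148). Of 6 tested genes of phosphatidylserine exposure, 2 were positive (median -0.13). The scramblase gene Ano6 stood at 61.4, 130 and 73.5 CPM with curcumol and at 48.0 and 21.5 CPM without it (1.14 ± 0.46, edgeR adjusted p = 0.190), and Plscr1 averaged 41.0 ± 4.91 CPM with curcumol and 49.2 ± 14.8 CPM without it (edgeR adjusted p = 0.352).

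Proteases release the TAM receptors from the cell surface, and 4 of 8 genes of their shedding and signalling were positive (median 0.095). Adam10, a sheddase that cleaves Axl, stood at 47.5, 155 and 57.9 CPM with curcumol and at 20.7 and 17.2 CPM without it (log2 fold change 1.99 ± 0.54, edgeR adjusted p = 0.0816). Adam10 peaked in curcumol replicate 2, as Mertk and Axl did. Adam17, which cleaves Mertk, stood at 156, 210 and 115 CPM with curcumol and at 138 and 152 CPM without it (-0.04, edgeR adjusted p = 0.953). Timp3, an inhibitor of Adam17 made mainly by stromal cells, stood at 4.36, 16.8 and 8.32 CPM with curcumol and at 0 and 0.0480 CPM without it. Timp3 entered the test only through the curcumol libraries, so no p is given.

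Of 13 genes of phagosome handling, 4 were positive (median -0.11). Rubcn, needed for LC3-associated phagocytosis, stood at 22.1, 35.8 and 17.4 CPM with curcumol and at 9.47 and 11.1 CPM without it (log2 fold change 1.10 ± 0.39, edgeR adjusted p = 0.143). Rab5a, a GTPase of early phagosomes, stood at 120.5, 97.7 and 95.05 CPM with curcumol and at 152 and 117 CPM without it (edgeR adjusted p = 0.169). Nuclear receptors and metabolic genes that respond to the ingested load were positive in 4 of 13 (median -0.28). Pparg stood at 23.6, 29.0 and 25.6 CPM with curcumol and at 44.9 and 58.8 CPM without it (-1.18 ± 0.21, edgeR adjusted p = 0.0651). Nr1h2, which encodes the oxysterol receptor LXR beta, stood at 112, 105 and 115 CPM with curcumol and at 152 and 158 CPM without it (-0.67 ± 0.15, edgeR adjusted p = 0.0665). Abca1 went the other way, at 148, 184 and 186 CPM with curcumol and at 42.4 and 83.4 CPM without it (1.27 ± 0.30, edgeR adjusted p = 0.0709).

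**Figure D5:**
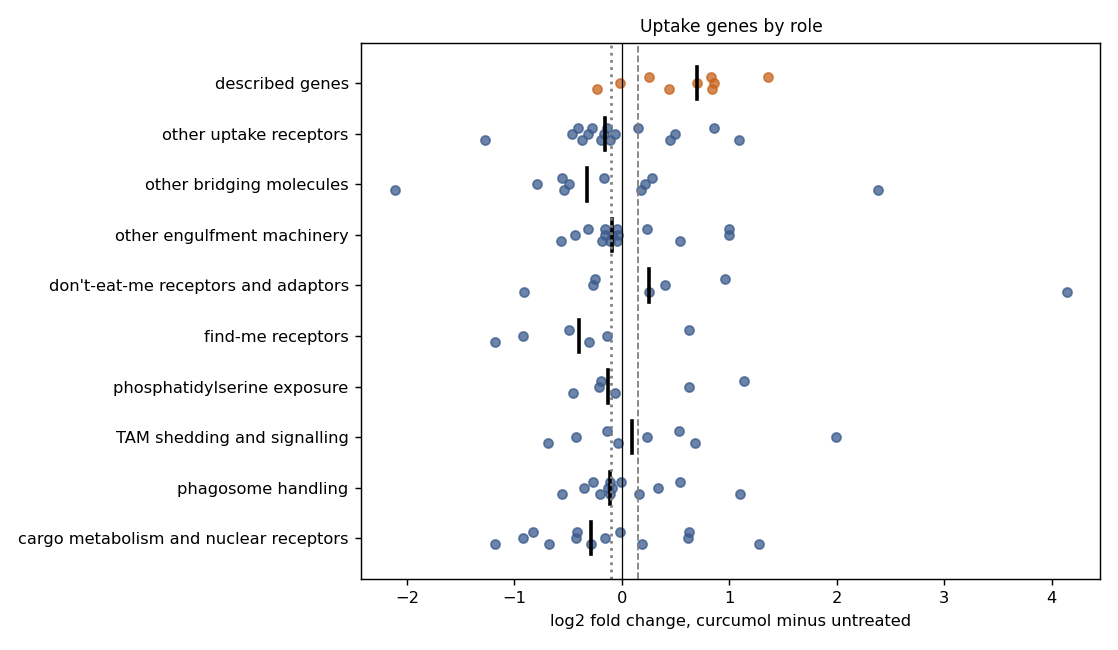
Log2 fold changes, curcumol minus untreated (x), of 9 of the 10 described genes (orange) and of 94 other uptake genes by role (blue), leaving out 7 tested genes with under 10 counts in both untreated libraries. Black bars are medians of the genes drawn, which run from -0.40 to 0.25 for the other roles and stand at 0.70 for the described genes, the dashed line is the median of all tested genes, 0.15, and the dotted line that of genes with an average log2 CPM of at least 5, -0.10.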

How the data were processed

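The data were gene-level counts from RNA sequencing of sorted cardiac macrophages, 3 libraries with and 2 without curcumol, tied to samples by title. The authors deposited whole-number read counts per gene without normalization. The submitters' processing notes list fastp, HISAT2, Bowtie2 and HTSeq. The sources used here give no versions, genome build or annotation. The labels' protocols and the series' design text name different library kits, one of them stranded, so counting by strand is not settled. How reads shared by similar genes were counted is not known.

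Levels are CPM on total counts. Levels between genes use transcript lengths of GENCODE M21 (longest coding transcript, matched by symbol for 82.2% of genes). The groups were compared with edgeR 4.0.16 under R 4.3.3. Its TMM factors ranged from 1.02 to 1.07 with curcumol and from 0.911 to 0.939 without it. Genes were filtered with filterByExpr (minimum count 10), and the two-sided quasi-likelihood test (a model of group alone, 3 residual degrees of freedom) was adjusted by Benjamini-Hochberg over 14508 genes. Fold changes from this fit therefore lie below the log2 ratios of CPM. SEs were derived from each gene's fold change and F value.

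The 10 genes and all lists were chosen with earlier results of these data known. Genes named from the pathway lists are the 2 tested members of each list with the smallest p. Sirpa, Rac1, Adam17, Abca1, Cd68, Itgam, Acta2, Dcn, Ngp and Rgs5 were added after values were seen. So was the rule that leaves out pathway genes with under 10 counts in both untreated libraries. Pear1, Ptx3, Elmo3 and Timp3 were named by their small p although they entered the test only through the curcumol libraries. Their being named is therefore no evidence of a difference. Genes most like Mertk were ranked among those with an average log2 CPM of at least 5. Alternatives were DESeq2 1.42.0, limma-voom (limma 3.58.1), RLE factors, total counts, other filters on low counts, a replicate block, removal of a lowess trend on transcript length, and leaving out each library.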

Additional observations from a re-analysis of the deposited data

How the results depend on the processing

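No threshold call exists among the 10 genes in edgeR, and the number of genes called depended strongly on method and library. The count of all genes called was 30, and it was 2653 with DESeq2, 1661 with limma-voom, 416 without a filter on low counts, 98 with a CPM of at least 1 in 2 samples, 10 with total counts and 0 to 3531 with 1 library left out (0 without curcumol replicate 2, with 1791 higher and 592 lower at an unadjusted p under 0.05, 1 without replicate 1, 19 without curcumol replicate 3; leaving out an untreated library gave 2950 for replicate 1 and 3531 for replicate 2). Of the 10 genes, 3 were called with DESeq2, and 0 to 1 with 1 library left out, the 1 being Mertk without untreated replicate 2. Of the other pathway genes, 25 of 104 were called with DESeq2, 14 of 101 with limma-voom, 5 of 104 without a filter and 0 to 16 with 1 library left out, 16 without either untreated replicate. Among the 94 with 10 counts in an untreated library these were 18 with DESeq2, 8 with limma-voom, 4 without a filter, and 13 or 12 without untreated replicate 1 or 2. Fits with 1 untreated library assume that it varies like the others. Signs turned only for Axl, at -0.049 with the length trend removed and -0.16 without curcumol replicate 2 (-0.16 to 0.59 with 1 library left out), and for Elmo1, at 0.17 with total counts, 0.053 with a replicate block, 0.013 or 0.057 without curcumol replicate 1 or 3 and 0.086 without untreated replicate 2 (-0.13 to 0.086 with 1 library left out). Over all 13 alternatives Mertk ranged from 0.95 to 1.58, Gas6 from 0.60 to 1.02, Lrp1 from 0.38 to 1.09 and Cd47 from -0.63 to -0.05. Leaving out 1 library gave Pros1 0.12 to 0.89, and Dock1 0.45 to 1.10, lowest without curcumol replicate 2. The replicate numbers are not known to pair the samples, and deviations of same-numbered libraries had correlations of 0.02 and -0.03. With a replicate block 45 genes were called in all, none of the 10. TMM scaling moved 3 of 20 group means by more than 1 SD, those of Gas6, Lrp1 and Cd47 in untreated libraries. It cannot move a ratio within a library, since the factor cancels. Tyro3, with at most 20 counts, is at the limit of depth.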
